A study of Mus musculus with 18 samples.

Results

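The cytosolic heat-shock response is described here through 10 genes of heat-shock proteins and their helpers: Hspa1a, Hspa1b and Hspa8 of the HSP70 family, Hsph1 of the HSP110 family, Hsp90aa1 and Hsp90ab1, the J-domain genes Dnajb1 and Dnaja1, Bag3, and Zfand2a. They were found by symbol, and each of the 10 matched 1 gene ID among the 53379 in the deposited count table. RNA came from neutrophils that were sorted by flow cytometry from the bone marrow of 10-week-old mice and sequenced in 18 libraries. The mice were labelled CIS-/- or wild-type (WT). For each genotype there were 3 groups of 3 libraries, from cells lysed at once after the sort (unstimulated) or kept in GM-CSF, a cytokine of myeloid cells, at 100 ng/mL for 4 h or for 24 h. CIS is the product of Cish, an inhibitor that cytokines induce and that dampens their signalling, and the series asks how it limits GM-CSF. Cultured cells were held in RPMI1640 with 10% HI-FCS. The labels list no culture without GM-CSF, so time in culture and GM-CSF changed together. Neither the deleted part of Cish nor the animals behind each replicate are described in the labels. The p-values therefore weigh differences against the spread between libraries, which may be technical. In such bulk RNA, fewer cells that express a gene and less of its RNA per cell cannot be told apart.

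HSP70 proteins bind unfolded stretches of other proteins and let go of them in a cycle driven by ATP. J-domain proteins bring clients and start the cycle, HSP110 and BAG proteins exchange the nucleotide and so release the client, and HSP90 takes over folded but unstable clients such as kinases and receptors. In a stressed cell the factor HSF1 is freed from these chaperones and binds heat-shock elements, repeats of GAA and TTC units, in front of many of the same genes. Neutrophils are short-lived cells that survive longer in GM-CSF.

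Library totals ran from 12170524 to 22539858 counts. Levels are given as CPM, counts rescaled to a fixed library size with TMM factors, which assume that most genes keep their level. Called means a Benjamini-Hochberg adjusted p under 0.05 in edgeR's quasi-likelihood test over 11569 tested genes. Cish itself averaged 238 ± 5.10 CPM at 24 h in libraries labelled CIS-/-, against 1060.3 ± 7.36 CPM in WT libraries (SD, n = 3 each), and it was lower at 4 h too. Unstimulated it went against the label, with 18.7 ± 1.10 CPM in libraries labelled CIS-/- against 6.50 ± 0.0189 CPM in WT libraries. Every direction drawn from the unstimulated libraries below therefore rests on that label. Rpl29 was lower in libraries labelled CIS-/- than in WT at all 3 times. Without TMM factors its log2 fold changes were -2.17 unstimulated, -2.27 at 4 h and -3.42 at 24 h. Whether the unstimulated label is right was not tested. Neutrophil markers (12 genes, among them S100a8, S100a9 and Ly6g) summed to between 34480.1 and 125194 CPM in the 18 libraries, while B-cell, T-cell and dendritic-cell markers summed to at most 8.27 CPM. Erythroid markers were higher in libraries labelled CIS-/- at all 3 times, for example 91.7 to 92.7 CPM against 34.2 to 37.0 CPM unstimulated. Eosinophil, basophil and mast-cell markers summed to 16.7 to 65.8 CPM, of 4 tested 1, 2 and 1 being called higher and 0, 0 and 1 lower between the genotypes unstimulated, at 4 h and at 24 h. Mitochondrial genes took 0.147% to 0.248% of the counts. Replicate 1 labelled CIS-/- at 24 h stood apart from replicates 2 and 3 of its group, with a chi-square per degree of freedom of 7.5 and 9.32 against 2.54 between those 2 and at most 3.06 in the other groups. It had the highest Hspa1a, Hspa8, Hsp90aa1, Hsp90ab1, Dnajb1 and Bag3 of its group, so counts without it are given beside the 24 h comparisons.

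The 10 genes summed to 1074 to 1086 CPM in unstimulated libraries labelled CIS-/-, 532 to 556 CPM at 4 h and 1034 to 1099 CPM at 24 h. In WT cells the same sum was 765 to 776 CPM unstimulated, 539 to 565 CPM at 4 h and 459 to 469 CPM at 24 h. On the TMM scale the sum was therefore lowest at 4 h under the label CIS-/- and at 24 h in WT cells, and the genotypes overlapped only at 4 h. The WT order of 4 h and 24 h depends on that scale. Without TMM factors 5 members were called higher and 1 lower in WT cells at 24 h over 4 h. More of all genes were then called higher than lower too, with a median log2 fold change of 0.45. Per kilobase of exon, Hsp90ab1 had the highest level (mean over groups 70.6 CPM per kb), followed by Hspa8 (52.3), Zfand2a (43.3), Dnajb1 (19.7), Hsp90aa1 (10.2) and Dnaja1 (6.24). The other 4 genes lay at 0.104 to 0.458 CPM per kb. Those 4, Hspa1a, Hspa1b, Hsph1 and Bag3, passed the filter on low counts through only some groups. Hsph1 reached its minimum of 0.637 CPM in all 3 libraries of a group only at 24 h labelled CIS-/-. Hspa1a did so in the unstimulated and 24 h libraries labelled CIS-/-, Hspa1b there and in unstimulated WT, and Bag3 in the 3 groups labelled CIS-/-.

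**Figure D1:**
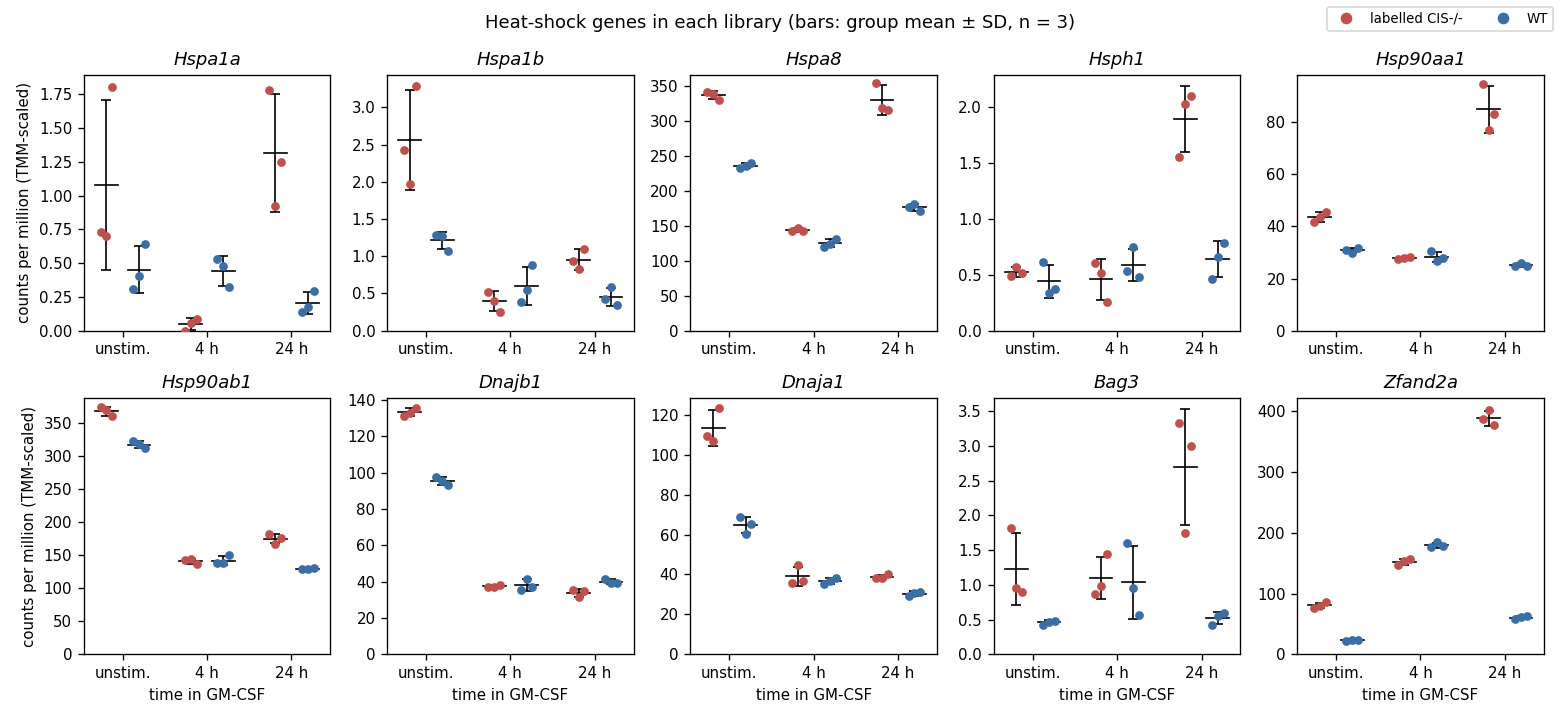
Level of each of the 10 genes in CPM (vertical axes, each from 0) in the 18 libraries, by time in GM-CSF, with libraries labelled CIS-/- in red on the left of each pair and WT in blue. Bars are the group mean ± SD (n = 3). The 24 h libraries labelled CIS-/- stand above WT for every gene but Dnajb1 on this TMM scale, while without TMM factors Hsp90ab1 and Dnaja1 are lower there.

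Hspa1a and Hspa1b encode the classic stress-inducible HSP70, and the RefSeq table holds a start for both. Their proximal promoters are shown because they bear the heat-shock-element letters, the same at 247 of 250 positions, and because the counts assigned to the 2 genes did not move alike. Shared sequence makes the split of those counts between the genes uncertain. The 250 bases before each start are printed 5′ to 3′ on the transcribed strand (GRCm38.p6, minus strand, chr17:34972157-34972406 for Hspa1a and chr17:34959239-34959488 for Hspa1b), with the match to GAANNTTC, 104 to 97 bases before the start, in capitals.
Hspa1a: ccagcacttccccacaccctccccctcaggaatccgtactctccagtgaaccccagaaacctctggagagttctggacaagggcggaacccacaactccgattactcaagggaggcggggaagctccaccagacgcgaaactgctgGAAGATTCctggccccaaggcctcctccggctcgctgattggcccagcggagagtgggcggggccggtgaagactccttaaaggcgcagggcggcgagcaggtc
Hspa1b: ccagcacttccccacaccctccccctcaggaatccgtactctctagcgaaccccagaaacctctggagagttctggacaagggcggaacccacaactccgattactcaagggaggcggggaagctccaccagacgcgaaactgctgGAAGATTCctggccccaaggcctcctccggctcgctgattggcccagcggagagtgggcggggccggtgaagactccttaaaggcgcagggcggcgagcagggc

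The letters searched were GAANNTTC and TTCNNGAA, each on both strands, where each reads the same. At least 1 of them was found in 5 of the 7 member genes with a promoter in the table: Hspa1a, Hspa1b, Hsph1, Zfand2a and 1 of 3 starts of Dnaja1. Among all genes in RefSeq's promoters, 3932 of 27025 held one (14.5%), as did 4218 of 32851 promoters (12.8%). No member held 3 alternating units, which 0.466% of all promoters did. A match describes letters, not a site that HSF1 uses. The matches of Hsph1 and Dnaja1 lie in annotated exon bases. Zfand2a and Dnajb1 are printed as a contrast, since they moved in opposite directions in culture. Among the other members, Hspa1b and Dnaja1 hold a match and were lower at 24 h over unstimulated labelled CIS-/- (log2 fold change -1.38 and -1.54). Hsph1 holds a match and was higher there (1.85), Bag3 holds none and was higher (1.16), and Hspa1a was not called. For Zfand2a the stretch is chr5:139484550-139484741 (minus strand, GRCm38.p6), 250 to 59 bases before the start, with the match to TTCNNGAA at 196 to 189 bases before it in capitals. For Dnajb1 it is chr8:83607972-83608174 (plus strand), 203 bases before the start, with no match.
Zfand2a: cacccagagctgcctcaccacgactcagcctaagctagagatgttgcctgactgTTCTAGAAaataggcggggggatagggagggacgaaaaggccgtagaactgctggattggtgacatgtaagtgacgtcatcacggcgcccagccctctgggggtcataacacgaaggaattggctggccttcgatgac
Dnajb1: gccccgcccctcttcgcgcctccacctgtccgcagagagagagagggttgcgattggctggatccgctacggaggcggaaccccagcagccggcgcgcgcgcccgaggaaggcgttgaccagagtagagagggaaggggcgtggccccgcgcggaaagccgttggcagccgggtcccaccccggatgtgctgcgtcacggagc

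The inducible HSP70 genes were weakly expressed in all groups. Hspa1a (ENSMUSG00000091971.3, mm10 chr17:34969190-34972156, minus strand) had 0.730, 0.698 and 1.80 CPM in unstimulated libraries labelled CIS-/-, 0, 0.0576 and 0.0851 CPM at 4 h, and 1.78, 0.920 and 1.25 CPM at 24 h. Its WT values were 0.306, 0.403 and 0.645 CPM unstimulated, 0.533, 0.476 and 0.321 CPM at 4 h, and 0.140, 0.174 and 0.294 CPM at 24 h. The genotypes did not overlap at any time, with the libraries labelled CIS-/- above WT unstimulated and at 24 h and below WT at 4 h. The 4 h libraries labelled CIS-/- held 2 Hspa1a counts in all, a ratio of 0.110 to WT (95% counting interval 0.0124 to 0.460) and of 0.0461 to their unstimulated level (0.00543 to 0.175). The 24 h libraries of that label held 26.9 times as much as those at 4 h (7.12 to 228). Such intervals cover counting error only. Hspa1a was called at 24 h between the genotypes (log2 fold change 2.69 ± 0.42 SE, adjusted p = 8.38e-08). It reached the filter's minimum in whole groups only under the label CIS-/-, unstimulated and at 24 h. Its genotype values there are therefore not independent of the filter. The unstimulated difference of 1.20 ± 0.40 (adjusted p = 0.0218) was lost without WT replicate 1 (0.98, adjusted p = 0.121), without WT replicate 2 (1.13, adjusted p = 0.0724) and without replicate 3 labelled CIS-/- (0.62, adjusted p = 0.407).

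Hspa1b (ENSMUSG00000090877.3, chr17:34956436-34959238, minus strand) had 2.43, 1.97 and 3.29 CPM in unstimulated libraries labelled CIS-/-, 0.522, 0.403 and 0.255 CPM at 4 h, and 0.930, 0.828 and 1.10 CPM at 24 h. WT libraries held 1.28, 1.28 and 1.07 CPM unstimulated, 0.381, 0.544 and 0.884 CPM at 4 h, and 0.419, 0.591 and 0.343 CPM at 24 h. Both genotypes were highest before culture, and they overlapped at 4 h only (-0.59 ± 0.47, adjusted p = 0.473). At 24 h Hspa1b was lower than its unstimulated level in both, by nearly the same amount (log2 fold change -1.38 ± 0.27 labelled CIS-/-, adjusted p = 4.99e-06, and -1.36 ± 0.32 in WT, adjusted p = 0.000157). The genotype difference was 1.08 ± 0.25 unstimulated (adjusted p = 0.000584) and 1.06 ± 0.35 at 24 h (adjusted p = 0.00531). The second was lost without replicate 3 labelled CIS-/- at 24 h (0.91, adjusted p = 0.0552) and with library sizes alone (0.53, adjusted p = 0.152).

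Reads cannot always be assigned to 1 of the pair, since 61.7% of the 75-base windows of Hspa1a and 55.8% of those of Hspa1b occur in other genes, mostly each other, so the split between them is uncertain. Summed, the pair had 3.16, 2.66 and 5.09 CPM in unstimulated libraries labelled CIS-/-, 0.522, 0.461 and 0.340 CPM at 4 h, and 2.71, 1.75 and 2.35 CPM at 24 h. In WT the sum was 1.59, 1.68 and 1.72 CPM unstimulated, 0.914, 1.02 and 1.21 CPM at 4 h, and 0.559, 0.765 and 0.638 CPM at 24 h. The sum thus fell and recovered in the cells labelled CIS-/-, with a log2 fold change of 2.36 ± 0.34 at 24 h over 4 h (adjusted p = 7.47e-09), while in WT cells that difference was -0.64 ± 0.33 (adjusted p = 0.0703). Between the genotypes the sum was higher unstimulated (1.12 ± 0.21, adjusted p = 3.91e-05), lower at 4 h (-1.22 ± 0.41, adjusted p = 0.0270) and higher at 24 h (1.78 ± 0.27, adjusted p = 2.46e-08) in libraries labelled CIS-/-. In cells labelled CIS-/-, the sum at 24 h was still below unstimulated (-0.65 ± 0.21, adjusted p = 0.00324), where Hspa1a alone was not called (0.31 ± 0.33, adjusted p = 0.380).

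Hspa8 (chr9:40800984-40810087, plus strand), the constitutive HSP70 of the cytosol, took 98.5% to 99.8% of the counts of Hspa8, Hspa1a and Hspa1b together in every library. Its level was 342, 339 and 330.4 CPM in unstimulated libraries labelled CIS-/-, 142, 148 and 143 CPM at 4 h, and 354, 319 and 316 CPM at 24 h. The WT libraries had 232, 236 and 240.1 CPM unstimulated, 120.3, 124 and 131 CPM at 4 h, and 177, 181 and 172 CPM at 24 h. Hspa8 was lowest at 4 h in both genotypes. At 24 h replicate 1 labelled CIS-/- was above the unstimulated libraries of that label and replicates 2 and 3 below them, while all 3 WT libraries were below the unstimulated WT libraries. The 24 h level differed from the unstimulated level by -0.03 ± 0.04 on the log2 scale labelled CIS-/- (adjusted p = 0.404) and by -0.42 ± 0.04 in WT (adjusted p = 2.16e-15). The first was called as lower without replicate 1 labelled CIS-/- at 24 h (-0.08, adjusted p = 0.0186) and with library sizes alone (-0.22, adjusted p = 2.96e-07). The genotypes did not overlap at any time, and the difference was 0.51 ± 0.04 unstimulated, 0.21 ± 0.04 at 4 h and 0.90 ± 0.04 at 24 h (adjusted p = 8.30e-18, 0.000154 and 1.34e-30). Of its 75-base windows 33% occur elsewhere, 30.2% in the pseudogene Gm15459.

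Hsph1 (chr5:149614287-149636376, minus strand) is an HSP110, a large relative of HSP70 that acts as its nucleotide-exchange factor. It had 0.487, 0.571 and 0.516 CPM in unstimulated libraries labelled CIS-/-, 0.609, 0.518 and 0.255 CPM at 4 h, and 1.55, 2.02 and 2.10 CPM at 24 h. Its WT levels were 0.611, 0.336 and 0.376 CPM unstimulated, 0.533, 0.748 and 0.482 CPM at 4 h, and 0.466, 0.661 and 0.785 CPM at 24 h. The 24 h libraries labelled CIS-/- stood above the other 15 libraries, which overlapped each other. There Hsph1 was higher than in WT by 1.57 ± 0.28 on the log2 scale (adjusted p = 1.16e-06) and higher than in unstimulated libraries with the same label by 1.85 ± 0.32 (adjusted p = 4.98e-07). Since Hsph1 passed the filter through this group alone, these values describe a gene that was admitted by its level there; with no filter they were 1.55 (adjusted p = 1.06e-06) and 1.86 (adjusted p = 1.65e-07). WT cells showed no call between times by TMM scaling, and one at 24 h over unstimulated with library sizes alone (0.83, adjusted p = 0.0393).

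The HSP90 pair split. Hsp90aa1 (chr12:110690605-110702728, minus strand), the stress-inducible HSP90, had 41.7, 43.6 and 45.4 CPM in unstimulated libraries labelled CIS-/-, 27.4, 27.7 and 28.2 CPM at 4 h, and 94.7, 77.0 and 83.3 CPM at 24 h. The WT series was 30.9, 29.7 and 31.9 CPM unstimulated, 30.5, 26.6 and 28.0 CPM at 4 h, and 24.6, 25.9 and 24.7 CPM at 24 h. WT cells therefore stayed within a narrow band, while the 24 h libraries labelled CIS-/- were above all others. The genotype difference was 0.50 ± 0.06 unstimulated (adjusted p = 4.09e-09), -0.03 ± 0.07 at 4 h (adjusted p = 0.857) and 1.76 ± 0.06 at 24 h (adjusted p = 4.64e-36). In WT, the log2 fold change at 24 h over unstimulated was -0.30 ± 0.06 (adjusted p = 4.28e-05), but 0.01 with library sizes alone (adjusted p = 0.874). Windows shared with other genes made up 42.8% of Hsp90aa1, 36.2% with Gm12346.

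Hsp90ab1 (chr17:45567775-45573271, minus strand), the constitutive HSP90, had 373, 369 and 359 CPM in unstimulated libraries labelled CIS-/-, 142, 143 and 137 CPM at 4 h, and 181, 167 and 175 CPM at 24 h. WT libraries read 322, 317 and 312 CPM unstimulated, 138, 137 and 149 CPM at 4 h, and 129, 129 and 130.0 CPM at 24 h. Both genotypes fell to well under their unstimulated level at both times, and they overlapped at 4 h only. Unstimulated the gene was higher in libraries labelled CIS-/- by 0.21 ± 0.03 on the log2 scale (adjusted p = 2.03e-06). At 24 h it was higher in libraries labelled CIS-/- by 0.43 ± 0.04 on the log2 scale (adjusted p = 4.71e-16), a direction that turned with library sizes alone (-0.10, adjusted p = 0.0115). The ratio within the pair does not depend on the scaling. Hsp90aa1 gave 10.6 ± 0.593% of the counts of the pair in unstimulated libraries labelled CIS-/-, 16.5 ± 0.524% at 4 h and 32.7 ± 1.46% at 24 h, and 8.87 ± 0.359%, 16.7 ± 1.25% and 16.2 ± 0.398% in WT libraries at the same times (SD, n = 3 each).

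**Figure D2:**
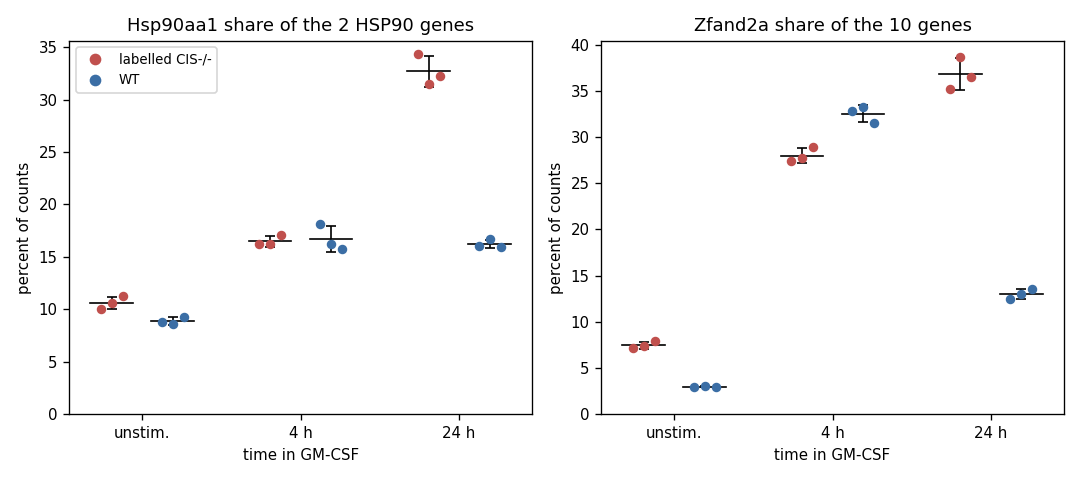
Share of counts in percent (vertical axes from 0) taken by Hsp90aa1 within the HSP90 pair (left) and by Zfand2a within all 10 genes (right), per library, by time in GM-CSF; libraries labelled CIS-/- are red and stand left of WT in blue, and bars are the mean ± SD (n = 3). At 24 h the shares are 32.7% against 16.2% for Hsp90aa1 and 36.8% against 13% for Zfand2a; neither depends on library scaling.

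The J-domain genes had their highest level before culture. Dnajb1 (chr8:83608193-83612653, plus strand), the HSP40 partner of inducible HSP70, had 131, 133 and 136 CPM in unstimulated libraries labelled CIS-/-, 37.2, 36.8 and 38.1 CPM at 4 h, and 35.2, 31.5 and 34.8 CPM at 24 h. WT cells had 97.5, 95.6 and 93.1 CPM unstimulated, 35.5, 41.6 and 37.3 CPM at 4 h, and 41.5, 39.5 and 39.2 CPM at 24 h. On the TMM scale it is the only member that was lower in the libraries labelled CIS-/- at 24 h, with no overlap between the genotypes (log2 fold change -0.24 ± 0.06, adjusted p = 0.000145). With library sizes alone it had -0.77, and Hsp90ab1 and Dnaja1 were called lower too. Unstimulated it was higher by 0.48 ± 0.04 (adjusted p = 5.03e-14) in libraries labelled CIS-/-, and at 4 h the genotypes overlapped (-0.03 ± 0.06, adjusted p = 0.786).

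Dnaja1 (chr4:40722150-40737149, plus strand), another HSP40, had 109.6, 107 and 124 CPM in unstimulated libraries labelled CIS-/-, 35.7, 44.6 and 36.9 CPM at 4 h, and 38.4, 38.2 and 40.0 CPM at 24 h. In WT it had 68.7, 60.4 and 65.4 CPM unstimulated, 35.3, 36.6 and 38.3 CPM at 4 h, and 29.1, 30.5 and 31.4 CPM at 24 h. The libraries labelled CIS-/- were above WT before culture and at 24 h, and the ranges overlapped at 4 h. The difference was 0.80 ± 0.06 unstimulated (adjusted p = 1.74e-16) and 0.36 ± 0.07 at 24 h (adjusted p = 5.72e-06), the second turning to -0.17 with library sizes alone (adjusted p = 0.0187). Dnaja1 overlaps Smu1 on the other strand over 608 exon bases (13081 against 15595 counts over all libraries). No source used here gives the strand setting of the counts, so some of them may belong to Smu1.

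Bag3 (chr7:128523616-128546981, plus strand) encodes the stress-inducible BAG protein that couples HSP70 to the autophagy of damaged proteins. It had 1.83, 0.951 and 0.902 CPM in unstimulated libraries labelled CIS-/-, 0.870, 0.979 and 1.45 CPM at 4 h, and 3.33, 1.75 and 3.0 CPM at 24 h. WT values were 0.428, 0.470 and 0.483 CPM unstimulated, 1.60, 0.952 and 0.563 CPM at 4 h, and 0.419, 0.556 and 0.589 CPM at 24 h. The genotypes were separate before culture and at 24 h and overlapped at 4 h, where the 3 WT libraries spread widely. Bag3 was higher at 24 h in libraries labelled CIS-/- (log2 fold change 2.39 ± 0.29, adjusted p = 6.41e-11). It reached the filter's minimum in whole groups only under that label, so this value is not independent of the filter. The unstimulated difference of 1.41 ± 0.38 (adjusted p = 0.00383) was lost without replicate 1 labelled CIS-/- (0.99, adjusted p = 0.111). The change of WT cells at 4 h over unstimulated, 1.16 ± 0.41 (adjusted p = 0.00875), was lost without WT replicate 1 at 4 h (0.73, adjusted p = 0.160). The difference of WT cells at 24 h over 4 h was -0.98 ± 0.37 (adjusted p = 0.0140) and was lost without the same library (-0.55, adjusted p = 0.257).

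Zfand2a (chr5:139471211-139484549, minus strand), also called AIRAP, encodes a zinc-finger protein that arsenite and heat induce and that binds the proteasome. Its level was 77.0, 79.1 and 85.6 CPM in unstimulated libraries labelled CIS-/-, 146, 154 and 156 CPM at 4 h, and 387, 402 and 377 CPM at 24 h. WT libraries held 22.6, 23.7 and 22.9 CPM unstimulated, 177, 184 and 178 CPM at 4 h, and 57.3, 61.3 and 62.5 CPM at 24 h. Each of the 6 groups was separate from the next, and the highest group mean was 16.9 times the lowest, the widest range of the 9 members other than Hspa1a. Zfand2a climbed at each step in the cells labelled CIS-/-, with log2 fold changes of 0.92 ± 0.04 at 4 h over unstimulated (adjusted p = 4.15e-28) and 1.35 ± 0.04 at 24 h over 4 h (adjusted p = 5.94e-39). In WT cells it peaked at 4 h, with 2.96 ± 0.05 over unstimulated (adjusted p = 4.07e-51) and -1.57 ± 0.04 at 24 h over 4 h (adjusted p = 1.98e-40). The genotype difference was 1.80 ± 0.05 unstimulated, -0.24 ± 0.04 at 4 h and 2.69 ± 0.04 at 24 h (adjusted p = 1.94e-36, 4.01e-06 and 1.20e-53). Its share of the counts of all 10 genes was 36.8 ± 1.73% at 24 h labelled CIS-/- and 13 ± 0.540% at 24 h in WT.

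The genotype comparisons, libraries labelled CIS-/- against WT at 1 time, show the members high, mixed and high again. Unstimulated, 9 of the 10 members were higher and 0 lower in libraries labelled CIS-/-, where 12.9% of all tested genes were called higher and 9.41% lower. Hsph1 was not called (0.24 ± 0.43, adjusted p = 0.755). At 4 h, Hspa8 was higher and Hspa1a and Zfand2a lower, which is 1 and 2 of 10, against 8.0% and 9.30% of all genes. By 24 h 9 members were higher and 1, Dnajb1, lower, where 38.2% of all genes were called higher and 38.1% lower. Hsph1, one of the 9, passed the filter only through the 24 h group labelled CIS-/-. Hspa1a and Bag3, counted as higher both unstimulated and at 24 h, passed it only through groups labelled CIS-/-. These counts therefore include genes that were admitted by their level under that label. With library sizes alone, which shifts the median of all genes by -0.53 on the log2 scale, the 24 h split was 6 higher and 3 lower, with Hspa1b not called. That setting called more of all genes lower than higher, with a median of -0.55. The median log2 fold change of the members was 0.66 unstimulated, -0.03 at 4 h and 1.32 at 24 h, beside -0.01, -0.02 and -0.02 for all tested genes. Without replicate 1 labelled CIS-/- at 24 h the split was again 9 and 1, with 0.85 for Hspa8, 1.68 for Hsp90aa1, 2.46 for Hspa1a, 2.25 for Bag3 and 2.69 for Zfand2a. Leaving out the 3 unstimulated libraries labelled CIS-/-, an alternative added after seeing the data, gave the same splits at 4 h (1 and 2) and 24 h (9 and 1).

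**Figure D3:**
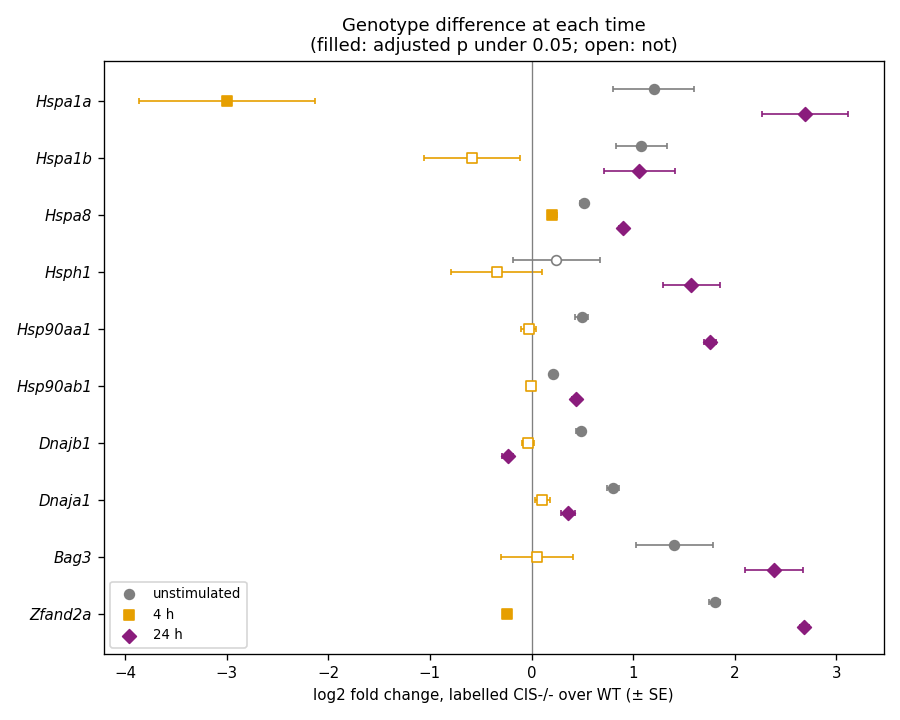
Log2 fold change ± SE (horizontal axis), libraries labelled CIS-/- over WT, for each gene unstimulated (grey circles), at 4 h (orange squares) and at 24 h (purple diamonds); filled symbols have an adjusted p under 0.05. Most genes lie right of 0 unstimulated and at 24 h and close to 0 at 4 h; the 4 h value of Hspa1a rests on 2 counts, and at 24 h Hsp90ab1 and Dnaja1 turn negative with library sizes alone.

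Most of the abundant chaperones were lower at 4 h than unstimulated in both genotypes. Among libraries labelled CIS-/-, 1 member (Zfand2a) was higher at 4 h than unstimulated and 7 were lower, with Hsph1 and Bag3 not called, where 37.9% of all genes were called higher and 39.1% lower. WT cells had 2 members higher (Bag3 and Zfand2a) and 5 lower, against 38.1% and 38.2% of all genes. The 5 were Hspa1b, Hspa8, Hsp90ab1, Dnajb1 and Dnaja1. Dnajb1 fell most among the abundant members of the cells labelled CIS-/- (log2 fold change -1.84 ± 0.05, against -1.32 ± 0.05 in WT; adjusted p = 7.77e-40 and 7.47e-32). Next came Dnaja1 (-1.52 ± 0.06 against -0.82 ± 0.07; adjusted p = 9.13e-27 and 1.18e-15) and Hsp90ab1 (-1.38 ± 0.04 against -1.16 ± 0.04; adjusted p = 1.94e-40 and 1.87e-36). Hsp90aa1 fell in cells labelled CIS-/- (-0.65 ± 0.07, adjusted p = 2.91e-13) and had -0.13 ± 0.07 in WT (adjusted p = 0.0967). The WT value was called without WT replicate 1 at 4 h (-0.18, adjusted p = 0.0376) and with library sizes alone (-0.30, adjusted p = 9.85e-05). The call of Hspa1b in WT (-1.01 ± 0.35, adjusted p = 0.00876) was lost without WT replicate 1 at 4 h (-0.77, adjusted p = 0.0648).

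At 24 h over unstimulated the member calls differed between the genotypes on the TMM scale. Libraries labelled CIS-/- had 4 members higher (Hsph1, Hsp90aa1, Bag3 and Zfand2a) and 4 lower (Hspa1b, Hsp90ab1, Dnajb1 and Dnaja1), where 42.1% of all genes were called higher and 42.0% lower. Both counts lie near the shares of all genes. Hsph1 reached the filter's minimum in a whole group only at 24 h labelled CIS-/-, and Bag3 only under that label. Without replicate 1 labelled CIS-/- at 24 h, 4 were higher and 5 lower, and library sizes alone gave 4 and 5 too. The largest changes over all libraries of that label were Zfand2a (2.27 ± 0.04, adjusted p = 3.42e-50) and Hsph1 among the higher and Dnajb1 (-1.97 ± 0.05, adjusted p = 1.07e-41) and Dnaja1 (-1.54 ± 0.06, adjusted p = 2.57e-27) among the lower. Hsp90aa1 was higher by 0.97 ± 0.06 (adjusted p = 1.09e-23) while Hsp90ab1 was lower (-1.07 ± 0.04, adjusted p = 2.06e-35). In WT, Zfand2a alone was higher and 7 members were lower (Hspa1a, Hspa1b, Hspa8, both HSP90 genes, Dnajb1 and Dnaja1), against 40.7% and 37.7% of all genes. The split was 2 higher and 5 lower with library sizes alone, a setting that called more of all genes higher than lower here (median 0.36). Zfand2a had 1.39 ± 0.05 in WT (adjusted p = 2.41e-32), Hsp90ab1 -1.29 ± 0.04 (adjusted p = 1.38e-39), Dnajb1 -1.25 ± 0.05 (adjusted p = 1.15e-32) and Dnaja1 -1.10 ± 0.06 (adjusted p = 4.18e-21). The Hspa1a call in WT (-1.18 ± 0.53, adjusted p = 0.0371) was lost without unstimulated WT replicate 3 (-0.81, adjusted p = 0.257), and without WT replicate 1 (-1.01, adjusted p = 0.103) or 2 (-1.07, adjusted p = 0.102) at 24 h. It was lost too with DESeq2 (-1.19, adjusted p = 0.0608), no low-count filter (-1.15, adjusted p = 0.0663) and library sizes alone (-0.89, adjusted p = 0.118). Hspa1a labelled CIS-/-, not called over all libraries, was called higher without unstimulated replicate 3 of that label (0.87, adjusted p = 0.0338).

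From 4 h to 24 h, 8 members were higher and 1 (Dnajb1) lower in libraries labelled CIS-/-, where 37.8% of all genes were called higher and 37.9% lower, and again 8 and 1 without replicate 1 labelled CIS-/- at 24 h. Among the 8 were Hsph1 (2.02 ± 0.34, adjusted p = 4.73e-07), Hsp90aa1 (1.62 ± 0.06, adjusted p = 2.16e-32), Bag3 (1.35 ± 0.28, adjusted p = 2.74e-05), Hspa8 (1.19 ± 0.04, adjusted p = 1.19e-35) and Hsp90ab1 (0.31 ± 0.04, adjusted p = 1.64e-10). Hsph1 reached the filter's minimum in a whole group only at 24 h labelled CIS-/-, and Hspa1a and Bag3 only under that label. Calls of these genes as higher are therefore not independent of the filter. Dnaja1 was not called (-0.02 ± 0.07, adjusted p = 0.808). The Dnajb1 call (-0.14 ± 0.06, adjusted p = 0.0403) was lost without replicate 1, 2 or 3 at 4 h (adjusted p = 0.0612, 0.0564 and 0.104) and without replicate 2 at 24 h (-0.09, adjusted p = 0.195). It was also lost with RLE factors (adjusted p = 0.0738), DESeq2 (0.0944), no low-count filter (0.0685), the compared groups only (0.0613) and without the 3 unstimulated libraries labelled CIS-/- (0.0556). WT cells had 1 member higher, Hspa8 (0.50 ± 0.04, adjusted p = 4.71e-17), and 5 lower, against 35.7% and 39.6% of all genes. With library sizes alone that WT split was 5 higher and 1 lower, since Hsp90aa1 had 0.31 there in place of -0.17, Hsp90ab1 0.36 in place of -0.13 and Dnaja1 0.21 in place of -0.27, all 3 called as higher. Dnajb1 was called there too (0.55) and Bag3 was not (-0.50, adjusted p = 0.204). That setting called more of all genes higher than lower, with a median of 0.45. On the TMM scale the Hsp90aa1 call (adjusted p = 0.0206) was lost without WT replicate 1 at 4 h (adjusted p = 0.171) and without WT replicate 1 or 3 at 24 h (0.0694 and 0.0726). The Hsp90ab1 call (adjusted p = 0.00228) was lost without WT replicate 3 at 4 h (-0.09, adjusted p = 0.0527). Hspa1a became a call in WT without replicate 3 at 24 h (-1.43, adjusted p = 0.0411), and so did Dnajb1 without replicate 2 at 4 h (0.14, adjusted p = 0.0451). All comparisons with the same 4 h or unstimulated libraries share those libraries.

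**Figure D4:**
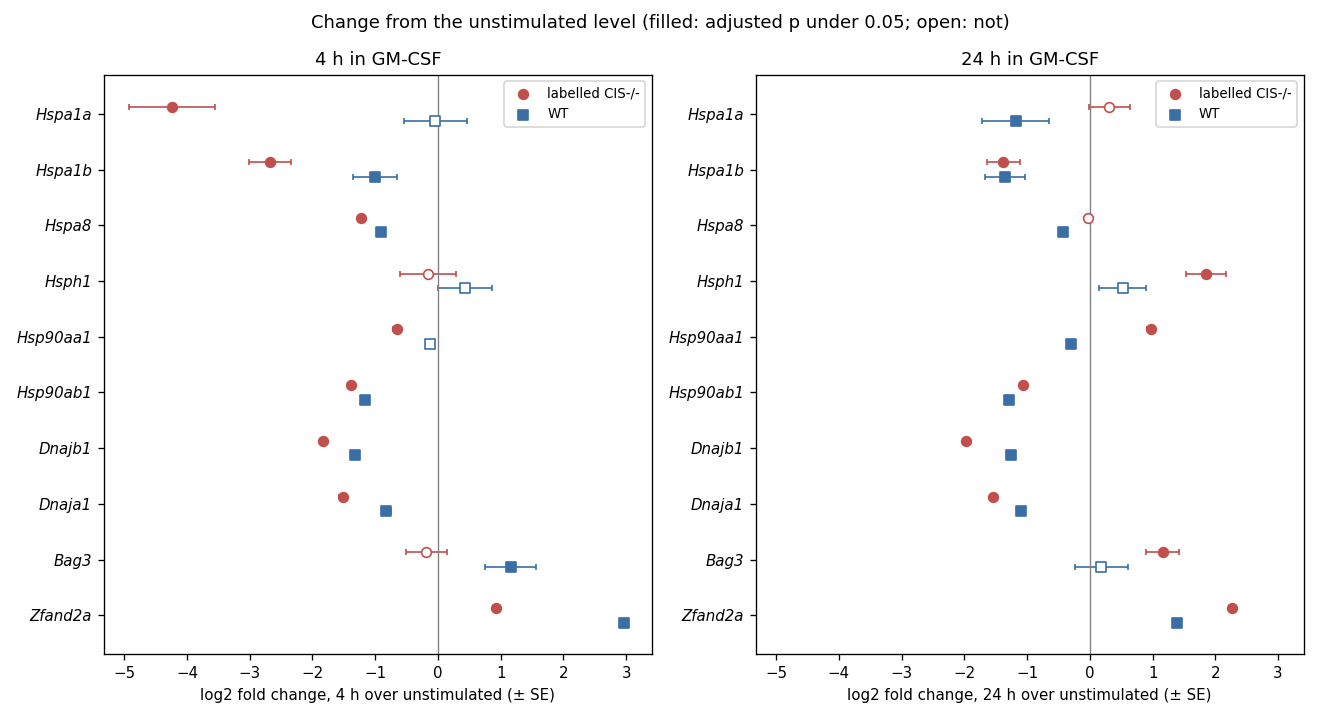
Log2 fold change ± SE over the unstimulated level (horizontal axes) at 4 h (left) and 24 h (right) in GM-CSF, for libraries labelled CIS-/- (red circles) and WT (blue squares); filled symbols have an adjusted p under 0.05. At 24 h Hsph1, Hsp90aa1 and Bag3 are called higher in libraries labelled CIS-/- (1.85, 0.97 and 1.16), and their WT values are 0.52, -0.30 and 0.18. With library sizes alone Hsph1 is called in WT too and Hsp90aa1 there is at 0.01. Hsph1 and Bag3 reached the filter's minimum in whole groups only under the label CIS-/-. The 4 h value of Hspa1a labelled CIS-/- rests on 2 counts.

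The time courses themselves differed between the genotypes by the interaction test, the change in libraries labelled CIS-/- minus the change in WT. For 4 h against unstimulated, 0 members had a positive and 8 a negative interaction, where 5.32% of all genes were called positive and 10.4% negative. Zfand2a had the largest value among the abundant members (-2.04 ± 0.07, adjusted p = 2.04e-33), and Hsph1 (adjusted p = 0.620) and Bag3 (-1.35 ± 0.52, adjusted p = 0.0721) were not called. For 24 h against unstimulated 6 were positive and 2, Dnajb1 and Dnaja1, negative, against 31.6% and 33.1% of all genes. With library sizes alone 2 were positive and 3 negative, where the median of all genes was -0.51. Over the step of 24 h against 4 h, 9 were positive and Dnajb1 negative (-0.20 ± 0.08, adjusted p = 0.0273), where 33.9% of all genes were called positive and 32.1% negative. With library sizes alone 6 were positive and 2 negative, where the median of all genes was -0.53. Without replicate 1 labelled CIS-/- at 24 h the splits were 5 and 2 for 24 h against unstimulated and 9 and 1 for 24 h against 4 h. Hspa1a, whose 4 h level rests on 2 counts, was followed in size by Zfand2a (2.93 ± 0.06, adjusted p = 3.21e-47), Bag3 (2.33 ± 0.47, adjusted p = 1.65e-05), Hsph1 (1.92 ± 0.53, adjusted p = 0.00133) and Hsp90aa1 (1.79 ± 0.09, adjusted p = 1.88e-25). Hsph1 reached the filter's minimum in a whole group only at 24 h labelled CIS-/-, and Hspa1a and Bag3 only under that label. Positive calls of these genes are therefore not independent of the filter.

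Several of these interaction calls rest on single libraries. For 4 h against unstimulated, the call of Hspa1b (-1.67 ± 0.54, adjusted p = 0.0221) was lost without unstimulated replicate 3 labelled CIS-/- (-1.45, adjusted p = 0.0678), without WT replicate 3 at 4 h (-1.32, adjusted p = 0.164) and without replicate 2 (-1.70, adjusted p = 0.0522) or 3 (-1.48, adjusted p = 0.0685) labelled CIS-/- at 4 h. For 24 h against unstimulated, that of Hsph1 (1.33 ± 0.52, adjusted p = 0.0225) was lost without unstimulated WT replicate 1 (1.03, adjusted p = 0.141), WT replicate 1 at 24 h (adjusted p = 0.0514) or replicate 3 labelled CIS-/- at 24 h (adjusted p = 0.0562). The same call was absent with no low-count filter (1.31, adjusted p = 0.0613) and with library sizes alone (0.84, adjusted p = 0.143). The Hspa1a interaction over the same step (1.49, adjusted p = 0.0314) was lost without unstimulated WT replicate 3 (1.11, adjusted p = 0.184), without unstimulated replicate 1 (1.27, adjusted p = 0.0779) or 2 (1.26, adjusted p = 0.0781) labelled CIS-/-, without WT replicate 1 (1.33, adjusted p = 0.0743) or 2 (1.39, adjusted p = 0.0740) at 24 h, and without replicate 1 labelled CIS-/- at 24 h (1.26, adjusted p = 0.0799). It was lost too with DESeq2 (1.52, adjusted p = 0.0647), no low-count filter (1.47, adjusted p = 0.0564) and library sizes alone (1.01, adjusted p = 0.144), and the summed Hspa1a and Hspa1b counts gave 0.66 (adjusted p = 0.0925). For 24 h against 4 h, Hspa1b (1.65 ± 0.59, adjusted p = 0.0115) was lost without WT replicate 3 at 4 h (1.30, adjusted p = 0.0782) and with library sizes alone (1.13, adjusted p = 0.0776). Dnajb1 (-0.20) was lost without WT replicate 1 (-0.15, adjusted p = 0.117) or 3 (-0.19, adjusted p = 0.0603) at 4 h, replicate 3 labelled CIS-/- at 4 h (adjusted p = 0.0573), WT replicate 1 at 24 h (adjusted p = 0.0544) or replicate 2 labelled CIS-/- at 24 h (-0.16, adjusted p = 0.0905). Dnaja1 (0.25 ± 0.10, adjusted p = 0.0218) was lost without WT replicate 3 at 4 h (adjusted p = 0.0627), replicate 1 (0.19, adjusted p = 0.0878) or 3 (adjusted p = 0.0675) labelled CIS-/- at 4 h, WT replicate 1 at 24 h (adjusted p = 0.0574) or replicate 3 labelled CIS-/- at 24 h (adjusted p = 0.0632). That Dnaja1 call was absent with no low-count filter as well (0.22, adjusted p = 0.0529). Bag3 gained a call for 4 h against unstimulated without replicate 3 labelled CIS-/- unstimulated (adjusted p = 0.0485) or at 4 h (0.0472) or WT replicate 3 at 4 h (0.0280). It gained one for 24 h against unstimulated (0.98 ± 0.52, adjusted p = 0.0914) without unstimulated replicate 1 (0.0222) or 24 h replicate 2 (0.0428) labelled CIS-/-.

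Hsf1 encodes the main heat-shock factor. It averaged 8.09 ± 0.877 CPM unstimulated, 3.11 ± 1.05 CPM at 4 h and 14.0 ± 0.926 CPM at 24 h in libraries labelled CIS-/-, and 7.61 ± 0.239, 3.53 ± 0.721 and 17.5 ± 1.01 CPM at the same times in WT libraries (SD, n = 3 each). At 24 h it was lower in libraries labelled CIS-/- (log2 fold change -0.30 ± 0.09, adjusted p = 0.00257), and unstimulated the difference was 0.09 ± 0.12 (adjusted p = 0.684). RNA levels do not measure the activity of this factor, which is set on the protein.

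Other chaperone classes were counted beside the members. Before culture, where 12.9% of all tested genes were called higher and 9.41% lower, the calls between libraries labelled CIS-/- and WT were 2 higher and 0 lower of 17 HSP90 cochaperones, 3 and 1 of 14 other cytosolic J-domain proteins, and 1 and 0 of 6 other HSP70 and HSP110 genes. Likewise there were 2 and 0 of 5 other nucleotide-exchange and BAG genes, and 1 and 0 of 14 chaperonin and prefoldin genes. Unc45a, a cochaperone of HSP90, was higher (83.2 ± 0.966 CPM labelled CIS-/- against 50.7 ± 1.87 CPM in WT, log2 fold change 0.71). Endoplasmic reticulum chaperones went the other way, with 1 higher and 8 lower of 14, among them Calr (95.3 against 115 CPM) and Canx (46.5 against 59.0 CPM), which fold glycoproteins. Immediate-early genes, which dissociation, sorting and stimulation are known to induce, moved with the members unstimulated: 17 of 19 were higher and 1 lower in libraries labelled CIS-/-, for example Junb (2333 ± 37.4 against 1713 ± 24.0 CPM). Their part in the result, and that of the erythroid markers, was not tested.

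At 24 h, where 38.2% of all tested genes were called higher and 38.1% lower, the endoplasmic reticulum list had 13 higher and 1 lower of 14 in libraries labelled CIS-/- (12 and 2 with library sizes alone), with a median log2 fold change of 1.75. Hspa5, the HSP70 of that compartment, averaged 1125 ± 26.1 CPM against 252 ± 10.9 CPM in WT, and Calr 672 ± 19.6 against 182 ± 0.362 CPM. Of the 11 ubiquitin and aggregate-clearance genes 8 were higher and 3 lower (3 and 6 with library sizes alone), among them Sqstm1, an autophagy receptor (5156 ± 165 against 613 ± 16.7 CPM). With library sizes alone more of all genes were called lower than higher, and their median log2 fold change was -0.55. The cytosolic classes were split. HSP90 cochaperones had 5 higher and 8 lower (1 and 16 with library sizes alone), other J-domain genes 6 and 4 (2 and 10), and chaperonin and prefoldin genes 6 and 3 (1 and 10). Other HSP70 and HSP110 genes had 3 and 3 (2 and 3), and other BAG genes 1 and 2 (0 and 4). Within them Hspa4, an HSP110 relative of Hsph1, had 93.2 ± 4.31 against 63.3 ± 2.13 CPM, while Fkbp5, an HSP90 cochaperone that glucocorticoids induce, had 104 ± 1.44 against 177 ± 2.65 CPM. The log2 fold change of Hspa4 was 0.03 with library sizes alone (adjusted p = 0.537), and that of Fkbp5 was -1.29 (adjusted p = 7.33e-37). Mitochondrial chaperones had 5 higher and 1 lower of 10 (1 and 3 with library sizes alone), with Hspa9, the mitochondrial HSP70, at 148 ± 3.39 against 26.7 ± 1.53 CPM.

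The same 24 h libraries differed in markers of other cells. Monocyte and macrophage markers summed to 1462 to 1563 CPM in libraries labelled CIS-/-, against 617 to 637 CPM in WT, and 4 of 6 tested were called higher and 0 lower (4 and 2 with library sizes alone). Adgre1 averaged 777 against 344 CPM and Cd68 492 against 75.3 CPM, while the defining marker C1qb was at 0 in all 3 libraries labelled CIS-/- and C1qa and C1qc at 0 in the 3 WT libraries. Erythroid markers summed to 25.4 to 37.4 CPM against 10.1 to 10.9 CPM in WT, where Klf1 and Epor were at 0. Neutrophil markers summed to 35248 to 39962 against 34480.1 to 35833 CPM. Immediate-early genes were 18 of 19 higher and 0 lower (16 and 2 with library sizes alone). The part of these cells and genes in the chaperone levels was not tested.

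**Figure D5:**
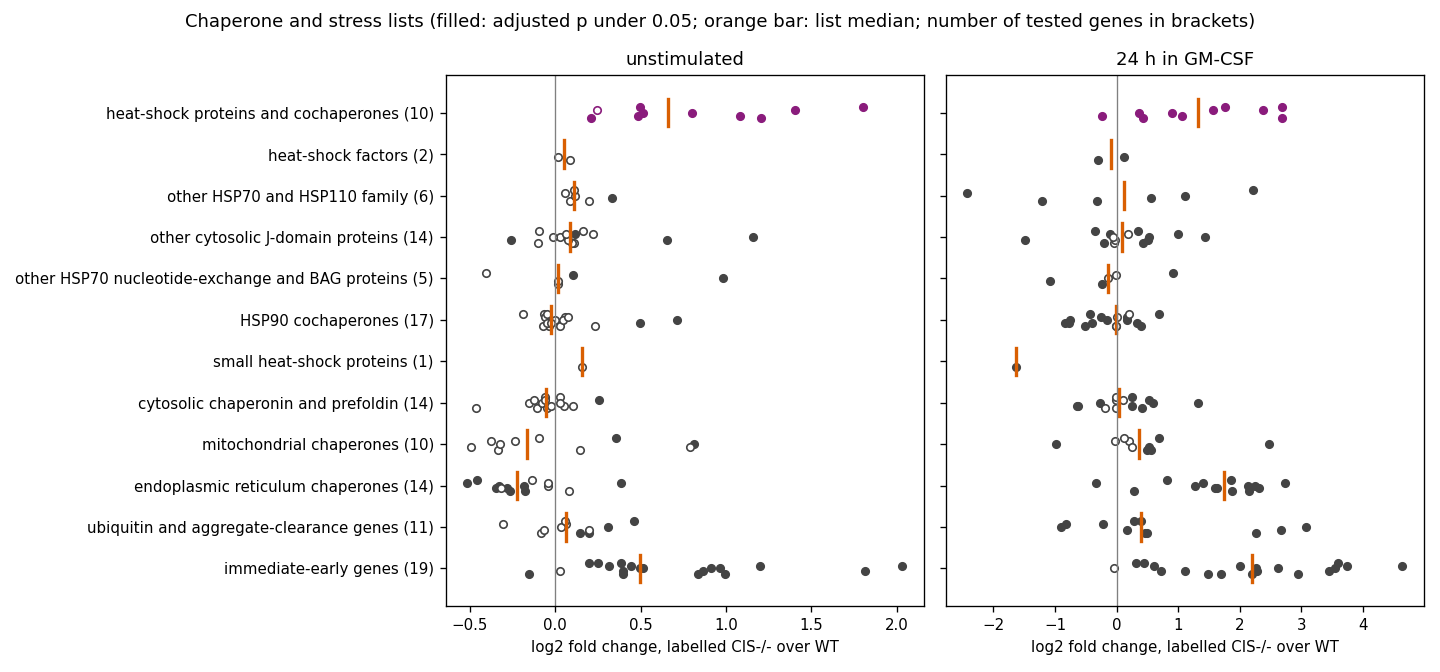
Log2 fold change (horizontal axes), libraries labelled CIS-/- over WT, of every tested gene in each list (rows, number of tested genes in brackets), unstimulated (left) and at 24 h (right); filled points have an adjusted p under 0.05 and orange bars are list medians. The 10 members have medians of 0.66 and 1.32 and endoplasmic reticulum chaperones -0.22 and 1.75; with library sizes alone the median of all tested genes in the right panel's comparison shifts by -0.53.

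Across the 18 libraries, the log2 levels of the members are compared here by Pearson correlations, which describe 6 groups of 3 and carry no test. Hsp90ab1, Dnajb1 and Dnaja1 followed each other with r of 0.937 to 0.945. Bag3, a gene of low counts, and Zfand2a had r of 0.800, and Dnajb1 and Zfand2a ran against each other (r = -0.652). Outside the set, the tested genes most like Hspa8 included Tiparp (r = 0.985) and Nr4a1 (0.981). Those most like Hsp90aa1 were Ccnl1 (0.991), Vegfa (0.983) and Suco (0.982), and Sik1 (0.991) led for Hsp90ab1. Dgat1 (0.993) was most like Dnajb1, Magoh (0.970) most like Dnaja1, and Gla (0.989), Aff4 (0.982) and Usp36 (0.975) most like Zfand2a.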

How the data were processed

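The deposited table holds unnormalised counts of reads for each Ensembl gene in 18 libraries. The tools the authors used were Trimmomatic, STAR and featureCounts with mm10, per the submitters' processing notes. Per the labels, the library kit keeps strand, and RNA had an integrity number above 7. No source used here gives versions, the annotation, or the strand and multimapping settings. For the later time the treatment text says 42 h, but titles and extraction text say 24 h, which was used. The members and all lists were chosen with earlier results of these data known.

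Of 53379 IDs, 53274 had a GENCODE M21 name (GRCm38, the assembly of mm10) and 105 did not. Genes were filtered with filterByExpr (minimum count 10, by group), which left 11569 genes with 99.9% of the counts, scaled by TMM, and tested two-sided in 1 quasi-likelihood model of the 6 groups (edgeR 4.0.16, R 4.3.3, robust). Genes with a Benjamini-Hochberg adjusted p under 0.05 are the called ones; each adjusted p in the text is from this test unless another is named. Standard errors were computed from the fold change and the quasi-likelihood statistic. The common biological coefficient of variation was 3.30%. The pipeline was tested on simulated counts. Chi-square per degree of freedom between replicates lay between 1.29 and 9.32, so no pair was a duplicate.

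All 10 members, Cish and Rpl29 are named. From each list only genes among its 3 most abundant and Hsf1 may be named. For likeness, the 3 tested genes with the highest Pearson r of log2(CPM + 0.1) with a member may be named too. The defining markers named at 0 come from the marker lists. Alternatives were RLE factors, library sizes alone, DESeq2 1.42.0, limma-voom 3.58.1, no or a stricter filter, compared groups only, Hspa1a and Hspa1b summed, a replicate block and each library left out; the fit without the 3 unstimulated libraries labelled CIS-/- was added after seeing the data. Replicate numbers did not pair libraries: 0 of 45 same-numbered pairs had residuals correlated above 0.1. Shared sequence was counted in windows of 75 bases over GENCODE exons. Promoter sequences are from RefSeq (GRCm38.p6), with entries for 7 members; Hspa8, Hsp90aa1 and Hsp90ab1 had none.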

Additional observations from a re-analysis of the deposited data

Results flagged for a closer look

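The course over time differed between libraries labelled CIS-/- and WT libraries for 26 of 30 member interactions, each by the edgeR interaction test (adjusted p under 0.05), given here as the log2 change labelled CIS-/- minus that in WT. Those for Hspa1a with 4 h rest on 2 counts there, and those with the unstimulated libraries on a label that Cish goes against. Of all tested genes, 5.32% were called positive and 10.4% negative for 4 h against unstimulated. The shares were 31.6% and 33.1% for 24 h against unstimulated, and 33.9% and 32.1% for 24 h against 4 h. The last is the difference between the other 2, so the 30 are not separate results. Hspa1a, Hsph1 and Bag3 reached the filter's minimum in whole groups only under the label CIS-/-. For 4 h against unstimulated the values were -4.20 for Hspa1a, -1.67 for Hspa1b, -0.31 for Hspa8, -0.52 for Hsp90aa1, -0.22 for Hsp90ab1, -0.52 for Dnajb1, -0.70 for Dnaja1 and -2.04 for Zfand2a. For 24 h against unstimulated they were 1.49 for Hspa1a, 0.39 for Hspa8 (-0.10 with library sizes alone), 1.33 for Hsph1, 1.26 for Hsp90aa1, 0.22 for Hsp90ab1 (-0.27 with library sizes alone), -0.72 for Dnajb1, -0.44 for Dnaja1 and 0.88 for Zfand2a. For 24 h against 4 h they were 5.69 for Hspa1a, 1.65 for Hspa1b, 0.70 for Hspa8, 1.92 for Hsph1, 1.79 for Hsp90aa1, 0.44 for Hsp90ab1 (-0.08 with library sizes alone), -0.20 for Dnajb1, 0.25 for Dnaja1 (-0.27 with library sizes alone), 2.33 for Bag3 and 2.93 for Zfand2a.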

How the results depend on the processing

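Of the values recomputed under the alternatives, 3766 were labelled the same. For a member's fold change this means the same direction and side of the threshold, and for a count of called genes a move of at most 1.5 times. Of the rest, 65 lost a call, 19 gained one, 49 changed sign and 5 counts moved by more than 1.5 times. The cause was not tested where none is given. With at least 50 counts in 3 libraries only 6 members were tested, and the members called were 5 for 24 h against unstimulated and 5 for 24 h against 4 h labelled CIS-/-, 6 between the genotypes at 24 h, and 6 for the interaction of 24 h against 4 h. Library sizes alone left 5 members called for the interaction of 24 h against unstimulated. That setting also turned Hsp90aa1 (0.0116) for WT at 24 h over unstimulated; Hspa1b (0.13), Hsp90aa1 (0.31), Hsp90ab1 (0.36) and Dnaja1 (0.21) for WT at 24 h over 4 h; Hsp90ab1 (-0.10) and Dnaja1 (-0.17) between the genotypes at 24 h; Hspa8 (-0.10) and Hsp90ab1 (-0.27) for the interaction at 24 h; and Hsp90ab1 (-0.0828) and Dnaja1 (-0.27) for that of 24 h against 4 h. It moved the median of all genes by -0.53 between the genotypes at 24 h, 0.48 for WT at 24 h over 4 h and 0.31 over unstimulated, -0.15 labelled CIS-/- and -0.18 in WT at 4 h over unstimulated and -0.18 at 24 h over unstimulated labelled CIS-/-, and all genes called higher and lower were then 2558 and 6999 between the genotypes at 24 h, 1168 and 1660 unstimulated, 6763 and 2506 for WT at 24 h over 4 h, and 6352 and 3164 over unstimulated. Summing Hspa1a and Hspa1b gave -0.65 for 24 h over unstimulated labelled CIS-/- (0.31 for Hspa1a alone) and 0.66 for the interaction at 24 h (-0.02 for Hspa1b alone).

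Uncalled values near 0 changed sign elsewhere: Hspa1a in WT at 4 h (0.0185 by limma-voom), Dnaja1 labelled CIS-/- at 24 h over 4 h (0.0024 by DESeq2), Hspa1b for the interaction at 24 h (0.0053 by DESeq2, 0.0429 by limma-voom), and Hsp90ab1 between the genotypes at 4 h (0.0101 by RLE factors, 0.0107 by DESeq2, 0.0039 with no filter, 0.0014 with the strict filter, 0.0092 with the compared groups only and 0.0038 without the 3 unstimulated libraries labelled CIS-/-). With 1 library left out, ranges that crossed 0 were Hsph1 (-0.34 to 0.0813) and Bag3 (-0.40 to 0.22) labelled CIS-/- at 4 h over unstimulated; Hspa1a in WT at 4 h (-0.27 to 0.33); Hspa8 (-0.0840 to 0.00079) at 24 h over unstimulated and Dnaja1 (-0.0815 to 0.10) at 24 h over 4 h, both labelled CIS-/-; Hsph1 in WT at 24 h over 4 h (-0.0369 to 0.32); Hsp90aa1 (-0.0780 to 0.0238), Hsp90ab1 (-0.0297 to 0.0315), Dnajb1 (-0.0850 to 0.0349), Dnaja1 (-0.0190 to 0.17) and Bag3 (-0.22 to 0.49) between the genotypes at 4 h; and Hspa1b for the interaction at 24 h (-0.18 to 0.27). The members called then ranged from 8 to 9 between the genotypes unstimulated, 3 to 3 at 4 h and 9 to 10 at 24 h, and from 7 to 8, 6 to 9 and 7 to 10 for the 3 interactions. DESeq2 gave no adjusted p for 7 of 120 member results, of 3 low genes.

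With the replicate number as a block no call of a member changed, and 8 members stayed called labelled CIS-/- at 4 h over unstimulated; Hspa1a in WT at 4 h had 0.0038 under the block, uncalled in both. Of the 45 same-numbered pairs, with correlations of -0.0775 to 0.0650, 13 correlated best with their own number. Depth limits Hspa1a, Hspa1b, Hsph1 and Bag3, which lay near the filter's minimum.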
